A study of Mus musculus with 6 samples.

Results

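The genes described are the 4 Id proteins (Id1, Id2, Id3 and Id4), the 3 E proteins (Tcf3, Tcf4 and Tcf12), the repressor Hes1 and the BMP ligand Bmp4. They were taken by gene name from a table of mRNA levels of mouse embryonic stem (ES) cells, and all 9 were found among its 22602 genes. The table holds 6 libraries. Clones A6, B8 and C4 hold, in ROSA26, mouse Sim2 with a Flag tag, driven by the tetracycline-regulated hCMV*-1 promoter and followed by an IRES and the Venus reporter. The control libraries EB3-0, EB3-1 and EB3-2 are cultures of EB3 (EBRTcH3), the parental line without the Sim2-Flag transgene. Venus is not particular to the clones: the paper used it as an internal control in EB3 too. There it was also expressed after 26 h of induction. All 6 cultures, controls included, grew on gelatin in serum with LIF and 1 µg/ml tetracycline and then spent 26 h in medium without tetracycline. There is 1 culture of each clone, so the spread among the Sim2 libraries holds differences between clones as well as between cultures. The spread among the EB3 libraries is that between cultures of 1 line. No Sim2 clone kept in tetracycline was analysed here, so an effect of Sim2 and of the construct's presence cannot be told apart.

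Id proteins are helix-loop-helix proteins that lack the basic stretch with which their relatives touch DNA. They pair with E proteins, which are broadly expressed basic helix-loop-helix (bHLH) factors, and keep them from binding E-boxes alone or with tissue-specific partners. In mouse ES cells Id genes are known targets of BMP4 acting through SMAD proteins, and Hes1 is a bHLH repressor known as a target of Notch. SIM2 itself belongs to the bHLH-PAS class and pairs with ARNT.

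Sim2 was at 196, 212 and 168 RPKM (reads per kilobase of cDNA, scaled to library size) in clones A6, B8 and C4, and at 0.0918 to 0.130 RPKM in EB3. Arnt was at 17.8 to 21.0 RPKM in the clones and at 19.3 to 20.8 RPKM in EB3. The libraries held 25095861 to 28269340 reads. The 8 ES cell markers summed to 5562 to 6710 RPKM in the clones and 5606 to 7037 RPKM in EB3, and every one of them had a mean of at least 1 RPKM. EB3-0 stood apart from the other EB3 cultures, with short cDNAs read higher and long ones lower. Its log2 level against the mean of the other EB3 cultures had a median of 0.35 for cDNAs under 1 kb. For those of 8 kb or more the median was -0.66. B8 stood apart from the other clones: the mean chi-square per gene of the reads was 40.4 between A6 and B8 and 12.4 between A6 and C4. EB3-1 and EB3-2 were the closest pair, at 2.78, and were kept as separate libraries.

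The sequence upstream of 4 members is shown because, of the members with an entry, these had the widest spread between clones and because they carry, or lack, elements that BMP, Notch and SIM factors are known to bind. RefSeq's promoter table (build GRCm38.p6) held 6 of the 9 members and no entry for Id1, Hes1 and Tcf4. Each line gives the 250 bases before the annotated start, 5′ to 3′ on the gene's own strand. Capitals mark the SMAD GC-rich element (GGCGCC), the RBPJ core (TGGGAA or its complement) and the SIM-ARNT core (ACGTG on either strand). The stretches are Id2 at chr12:25096093-25096342 (minus strand), Id3 at chr4:136143572-136143821 (plus strand), Id4 at chr13:48260866-48261115 (plus strand) and Bmp4 at chr14:46390670-46390919 (minus strand).
Id2: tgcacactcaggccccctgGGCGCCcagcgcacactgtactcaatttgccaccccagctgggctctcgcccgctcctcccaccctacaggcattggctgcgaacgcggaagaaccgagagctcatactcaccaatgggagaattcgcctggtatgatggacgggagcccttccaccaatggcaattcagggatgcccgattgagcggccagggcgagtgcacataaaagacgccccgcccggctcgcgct
Id3: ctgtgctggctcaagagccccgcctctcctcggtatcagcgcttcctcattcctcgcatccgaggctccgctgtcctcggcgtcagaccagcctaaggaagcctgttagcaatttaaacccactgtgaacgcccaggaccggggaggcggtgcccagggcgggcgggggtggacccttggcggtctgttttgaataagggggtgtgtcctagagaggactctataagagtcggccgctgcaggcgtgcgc
Id4: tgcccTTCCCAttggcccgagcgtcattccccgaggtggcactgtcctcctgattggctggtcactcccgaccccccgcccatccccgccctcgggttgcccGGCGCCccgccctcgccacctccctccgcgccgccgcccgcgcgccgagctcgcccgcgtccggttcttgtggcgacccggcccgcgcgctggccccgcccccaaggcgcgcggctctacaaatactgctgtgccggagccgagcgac
Bmp4: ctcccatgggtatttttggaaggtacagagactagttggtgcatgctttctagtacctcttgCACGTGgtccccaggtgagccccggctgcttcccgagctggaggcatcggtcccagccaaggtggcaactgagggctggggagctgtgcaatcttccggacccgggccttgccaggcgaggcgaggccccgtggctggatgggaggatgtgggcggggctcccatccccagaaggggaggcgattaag

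The 6 motifs were searched on both strands, and a match is a description of letters, not of a bound site. GGCGCC began 231 bases before the start of Id2 and 148 bases before that of Id4, and it stood in 9.59% of all 32851 promoter entries. Id4 also held the RBPJ core at 245 bases, which 21.6% of entries had, and an N-box (CACNAG, the Hes element) at 82 bases, which 36.7% had. Bmp4 held the palindrome CACGTG at 188 bases before its start, which is an E-box (CANNTG) and also the SIM-ARNT core on both strands. That core stood in 16.6% of entries and an E-box in 66.2%. E-boxes were found in 4 of the 6 members with an entry, namely Bmp4, Id2, Tcf3 and Tcf12 (in 2 of its 3 entries). Id3 held none of the 6 motifs, and the SMAD box GTCTAGAC, found in 0.167% of entries, was in no member.

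The first question was whether these genes differed between cells with induced Sim2 and the parental cells. All 9 members passed the level filter (a mean of at least 1 RPKM over the 6 libraries), and 0 of 9 were called different at an adjusted p under 0.05 by limma on log2(RPKM + 0.5). Of all 11595 tested genes 0.699% were called. None of the 9 reached an unadjusted p under 0.05, as 17.8% of tested genes did. None had groups that did not overlap, as 26.1% of tested genes had. The members' adjusted p ran from 0.350 (Id3) to 0.999 (Tcf12), and 5 had a higher mean log2 level in the clones and 4 a lower one.

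The intervals show how large a difference the 6 libraries could still hold. The 95% confidence interval of the log2 fold change was narrowest for Tcf3 (-0.11 to 0.29) and widest for Id4 (-0.37 to 1.16). For Id1 it ran from -0.91 to 0.33, for Id3 from -1.08 to 0.08 and for Bmp4 from -0.20 to 0.70. Differences of these sizes are not excluded by the 6 libraries.

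**Figure D1:**
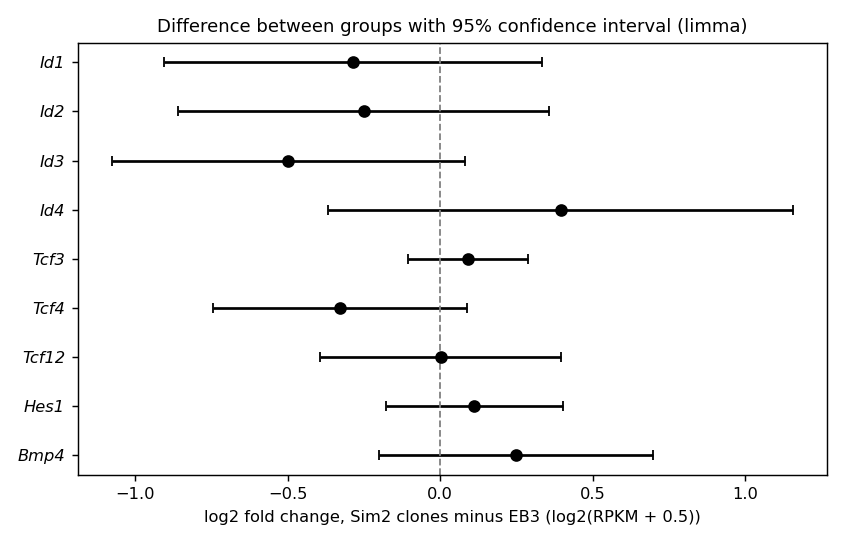
Log2 fold change (x axis, Sim2 clones minus EB3, on log2(RPKM + 0.5)) of each of the 9 genes (y axis). Points are limma estimates from 3 libraries against 3 and bars are 95% confidence intervals, all of which include 0, with Tcf3 the narrowest and Id4 the widest.

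What set Id1, Id3, Id4 and Bmp4 apart was the distance between the 3 clones, while Id2 was widely spread in both groups. Id1, Id3 and Bmp4 were highest in A6 and lowest in B8, and Id4 was highest in B8. The levels of each member follow, ordered by role.

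**Figure D2:**
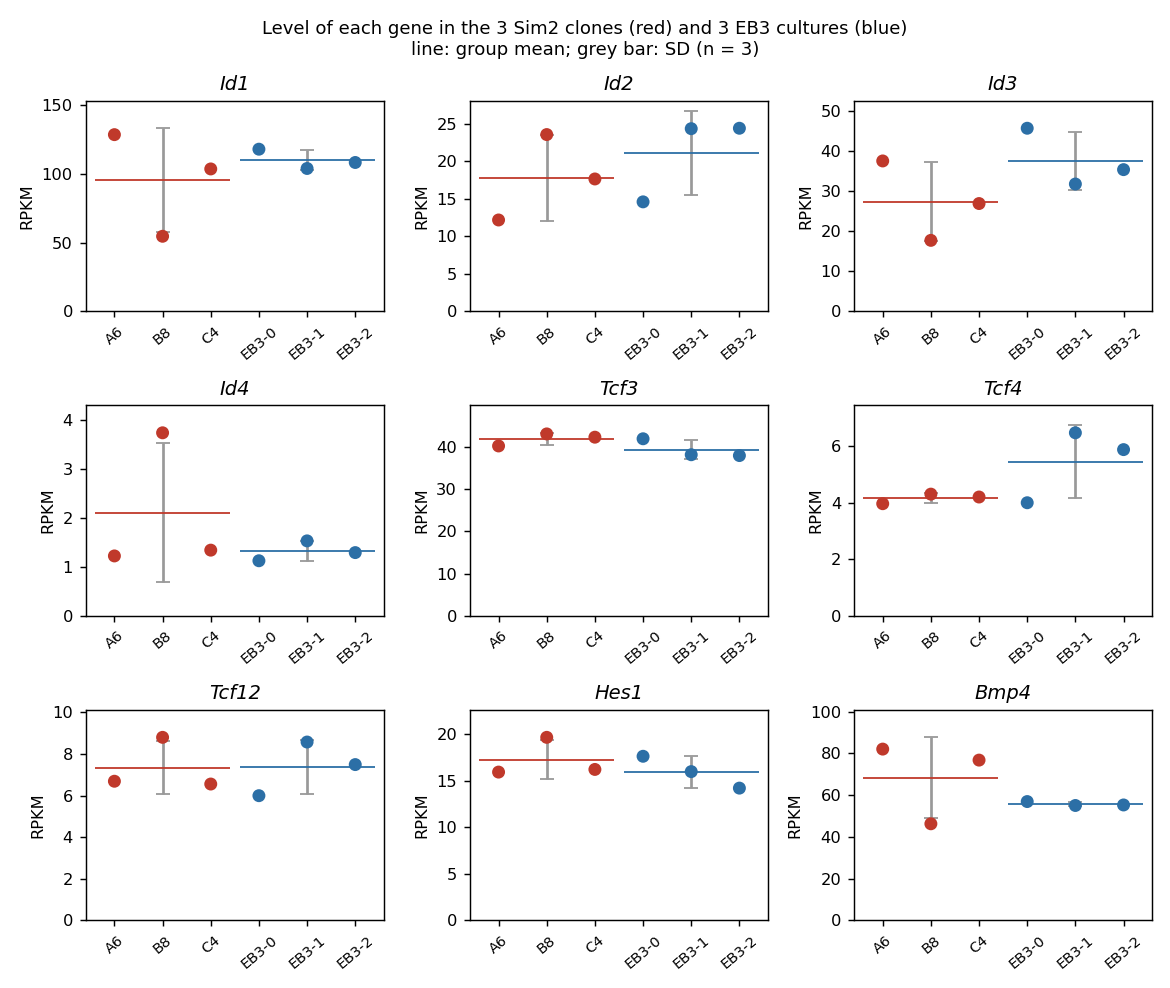
RPKM (y axis, linear from 0) of each gene in the 6 libraries (x axis), with Sim2 clones in red and EB3 cultures in blue. Lines are group means and grey bars SD (n = 3), and B8 is the lowest point for Id1, Id3 and Bmp4 and the highest for Id4.

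Id1 (chr2:152562010-152563146, plus strand; gene positions are in build mm9) was the most abundant of the 9 genes. It was at 129, 54.6 and 104 RPKM in A6, B8 and C4 and at 118, 104 and 108 RPKM in EB3-0, EB3-1 and EB3-2. B8 was the lowest of the 6 libraries, A6 the highest, and C4 lay within 1 RPKM of the lowest EB3 culture, so the groups overlapped. The means were 95.5 ± 37.6 RPKM (SD, n = 3) in the clones and 110.0 ± 7.18 RPKM in EB3. The log2 fold change was -0.29 ± 0.27 (SE) with an adjusted p of 0.625. Without B8 it was 0.07, on the other side of 0, and without A6 it was -0.54.

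Id3 (chr4:135699737-135701307, plus strand) followed the same order among the clones. Its levels were 37.5, 17.7 and 26.9 RPKM in A6, B8 and C4 and 45.7, 31.8 and 35.4 RPKM in EB3. B8 and C4 were below every EB3 culture, while A6 lay among them. Id3 had the smallest p of the 9, unadjusted 0.083 in limma, with a log2 fold change of -0.50 ± 0.25 (SE) and an adjusted p of 0.350. Leaving out 1 library at a time gave -0.22 without B8, -0.35 without EB3-0 and -0.75 (adjusted p = 0.208) without A6. EB3-0 was its highest library, at 0.44 from the mean of the other EB3 cultures on the log2 scale. For cDNAs under 1 kb, the length class of Id3, the median was 0.35.

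Id2 (chr12:25778664-25780957, minus strand) ran the other way among the clones. It was at 12.2, 23.6 and 17.7 RPKM in A6, B8 and C4 and at 14.6, 24.4 and 24.4 RPKM in EB3. A6 and EB3-0 were the low libraries, and B8 was close to EB3-1 and EB3-2. The log2 fold change was -0.25 ± 0.27 (SE), and the adjusted p was 0.669. Without A6 it was -0.01, without B8 -0.47 and without EB3-0 -0.49, while without EB3-1 or EB3-2 it was -0.13 each. EB3-0 lay at -0.72 from the mean of the other EB3 cultures on the log2 scale. By contrast, cDNAs of the length class of Id2 (1 to 2 kb) had a median of 0.21 in that library. A stretch of 294 bases on chromosome X matched the Id2 transcript at 95.6% identity, and how reads with several positions were counted is not given in the sources used here.

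Id4 (chr13:48356796-48359405, plus strand) was the least abundant member. Its levels were 1.22, 3.74 and 1.34 RPKM in A6, B8 and C4 and 1.13, 1.53 and 1.29 RPKM in EB3. B8 stood alone, and A6 and C4 lay within the EB3 range. These values rest on 51, 160 and 63 reads in the clones and 51, 68 and 56 in EB3. The 95% Poisson interval of B8, which covers counting error only and treats the mates of a pair as separate reads, was 3.18 to 4.37 RPKM, and the highest bound among the other libraries was 1.94 RPKM. Between groups the log2 fold change was 0.40 ± 0.33 (SE), with an adjusted p of 0.582, and it was -0.02 without B8. EB3-0 lay at -0.23 from the mean of the other EB3 cultures on the log2 scale. This was below the median of the length class of Id4 (0.21 for 1 to 2 kb).

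Summed per length, the 4 Id transcripts came to 179, 99.6 and 149 RPKM in A6, B8 and C4 and to 162 to 179 RPKM in EB3. Their make-up differed in B8. Id1 was 54.8% of the Id sum there and 63.9% to 71.6% in the other libraries, and Id2 was 23.7% there and 6.79% to 15.1% elsewhere. The ratio of Id1 to Id2 was 2.31 in B8 and 10.5 in A6, while that of Id1 to Id3 stayed between 2.58 and 3.85 in all 6 libraries.

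The E proteins showed no such distance between clones. Tcf3 (chr10:79871910-79896398, minus strand), which encodes E12 and E47 and is not the Wnt effector Tcf7l1, was at 40.2, 43.0 and 42.3 RPKM in A6, B8 and C4. In EB3 it was at 41.9, 38.1 and 37.9 RPKM, and A6 fell within that range. The highest clone was 1.07-fold above the lowest. Its log2 fold change was 0.09 ± 0.09 (SE; adjusted p = 0.632).

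Tcf4 (chr18:69504146-69847621, plus strand), which encodes E2-2 and is not Tcf7l2, was at 3.97, 4.31 and 4.21 RPKM in A6, B8 and C4 and at 4.01, 6.48 and 5.89 RPKM in EB3. All 3 clones and EB3-0 were low, and EB3-1 and EB3-2 were high. Its log2 fold change was -0.33 ± 0.18 (SE; adjusted p = 0.394). EB3-0 lay at -0.57 from the mean of the other EB3 cultures on the log2 scale. For cDNAs of 5 to 8 kb, the length class of Tcf4, the median was -0.35. Without EB3-0 the log2 fold change of Tcf4 was -0.52 with an adjusted p of 0.0508, and without EB3-1 it was -0.20 with one of 0.712. With the cDNA length trend removed from each library, the log2 fold change of Tcf4 was -0.45 with an adjusted p of 0.0751. With length and GC trends removed it was -0.31 with an adjusted p of 0.162. At both settings 0 members were called. How much of the EB3-0 value of each member goes with cDNA length was not tested.

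Tcf12 (chr9:71692059-71959626, minus strand), which encodes HEB, was at 6.69, 8.80 and 6.55 RPKM in A6, B8 and C4. It was at 5.99, 8.57 and 7.49 RPKM in EB3, so the ranges lay over each other. Its log2 fold change was 0.00 ± 0.17 (SE; adjusted p = 0.999).

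Tcf3 made up 76.7% to 79.7% of the summed E-protein RPKM in the clones and 71.7% to 80.7% in EB3. The E-protein sum was 50.9 to 56.2 RPKM over all 6 libraries. The ratio of the Id sum to the E-protein sum was 3.53, 1.77 and 2.82 in A6, B8 and C4 and 3.46, 3.04 and 3.30 in EB3. B8 and C4 had the lowest ratios and A6 the highest. The group means, 2.71 ± 0.883 and 3.27 ± 0.211 (SD, n = 3), gave p = 0.5 in a 2-sided exact permutation test, where 3 against 3 cannot go below 0.1. This ratio is of transcripts per length and not of proteins.

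Hes1 (chr16:30065443-30067882, plus strand) was at 15.9, 19.7 and 16.2 RPKM in A6, B8 and C4 and at 17.6, 16.0 and 14.2 RPKM in EB3. B8 was the highest library, and A6 and C4 lay within the EB3 range. Between groups the log2 fold change was 0.11 ± 0.13 (SE; adjusted p = 0.696), and it was 0.02 without B8.

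Bmp4 (chr14:47003196-47010274, minus strand) was at 82.1, 46.3 and 76.8 RPKM in A6, B8 and C4. The EB3 cultures were close together, at 56.9, 55.1 and 55.3 RPKM. A6 and C4 were above all EB3 cultures and B8 was below them, so the clones lay on both sides of the control range. Its log2 fold change was 0.25 ± 0.20 (SE) with an adjusted p of 0.551. Without B8 it was 0.51 with an adjusted p of 0.102, without A6 it was 0.10 and without C4 0.14. A listed gene on the other strand, Gm15217, overlaps Bmp4, and whether counting used the strand is not given in the sources used here, so reads of the 2 genes may not be separable.

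**Figure D3:**
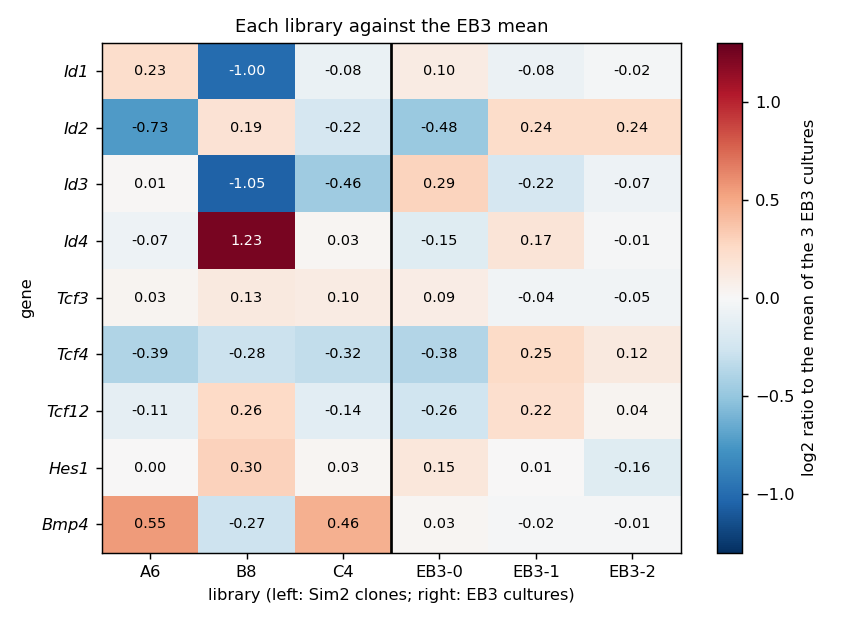
Log2 ratio of each gene (rows) in each library (columns) to the mean of the 3 EB3 cultures, on log2(RPKM + 0.5). In B8, Id3 stood at -1.05 and Id4 at 1.23, and Bmp4 was at -0.27, against 0.55 in A6 and 0.46 in C4.

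The spread between clones was compared with that of all tested genes, as a description. The SD of log2(RPKM + 0.5) over the 3 clones was 0.72 for Id4, 0.64 for Id1, 0.53 for Id3, 0.46 for Id2 and 0.45 for Bmp4. The median of all tested genes was 0.14, and spreads at least as wide were found in 1.06%, 1.66%, 3.48%, 5.56% and 6.27% of them. Tcf3 and Tcf4 had an SD of 0.05 each, which 88.2% and 86.7% of tested genes reached or passed. Over the EB3 cultures the SD of Bmp4 was 0.03 and that of Id1 0.09, against a median of 0.16 for all tested genes. Id2 had a wide spread in EB3 too, at 0.42.

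**Figure D4:**
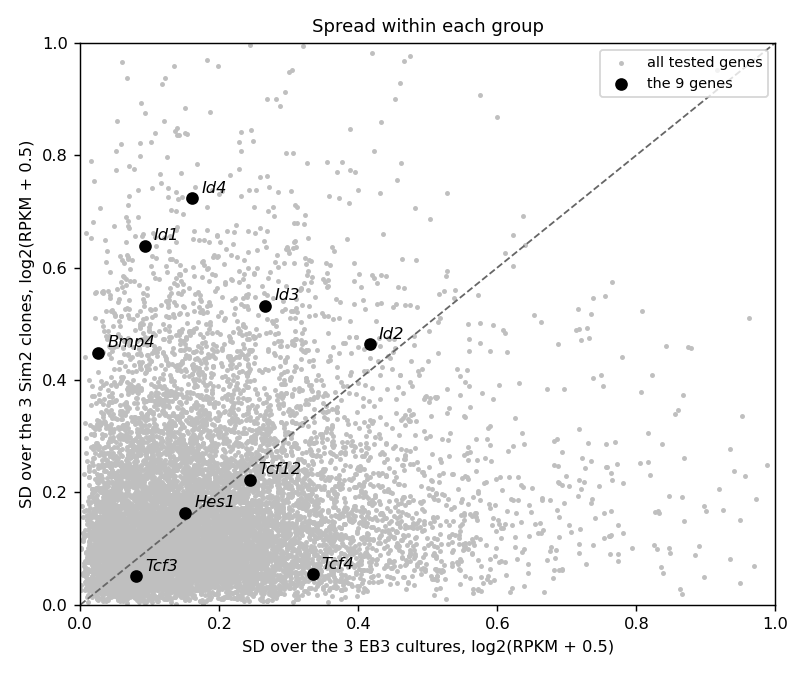
SD of log2(RPKM + 0.5) over the 3 EB3 cultures (x axis) and over the 3 Sim2 clones (y axis) for each tested gene (grey) and the 9 genes (black), with the line of equal spread dashed. Id1, Id3, Id4 and Bmp4 lie well above the line and Tcf4 below it; 38 tested genes lie outside the plotted range.

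The orders among clones that these genes followed were common in the table. A6 above C4 above B8, the order of Id1, Id3 and Bmp4, held for 25.5% of tested genes. B8 above C4 above A6, the order of Id2, Id4, Tcf3, Tcf4 and Hes1, held for 21.2%. B8 was the lowest of the 6 libraries for 26.5% of tested genes and the highest for 25.3%. In size the members differed. Shares are of tested genes whose ratio of B8 to the mean of the other clones lay at least as far from 1. They were ranked on log2 with 0.5 RPKM added to both terms, and the ratios in brackets are of RPKM alone. The share was 1.35% for Id1 (0.470), 0.785% for Id4 (2.91), 3.56% for Id3 (0.550), 4.73% for Bmp4 (0.583) and 7.49% for Id2 (1.58). For Tcf12 (1.33) the share was 19.9%, for Hes1 (1.22) 30.6%, for Tcf4 (1.05) 79.4% and for Tcf3 (1.04) 81.3%.

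Markers of other cells were summed beside these results. The 8 primitive endoderm markers summed to 17.2, 38.1 and 20.6 RPKM in A6, B8 and C4 and to 10.4 to 14.8 RPKM in EB3, so the groups did not overlap. Most of this was the basement membrane gene Lama1, at 11.8, 32.9 and 16.3 RPKM in A6, B8 and C4 and 6.96 to 11.6 RPKM in EB3, and 6 of the 8 markers had a mean under 1 RPKM. The 7 trophectoderm markers summed to 30.8, 31.5 and 36.5 RPKM in the 3 clones and 25.5 to 31.4 RPKM in EB3. Within that list B8 was highest for Krt18, an epithelial keratin (11.9 RPKM, and 4.27 to 5.78 RPKM elsewhere), and lowest for the most abundant marker, Tcfap2c, a transcription factor (14.7 RPKM, and 18.7 to 28.1 RPKM elsewhere). The 6 neural markers summed to 14.1, 17.3 and 19.8 RPKM in the clones and 12.0 to 15.2 RPKM in EB3, the 5 mesoderm markers to 2.73, 2.95 and 3.24 RPKM against 2.08 to 2.71 RPKM, and the 7 fibroblast markers to 13.8, 13.4 and 10.7 RPKM against 10.1 to 13.3 RPKM, with Lum and Postn at 0. The mesoderm sums did not overlap between groups either, and 26.1% of single tested genes had groups that did not overlap. By sums alone, B8 was the highest clone for primitive endoderm, mostly through Lama1, and not for the other 4 of these lists. The primitive endoderm markers did not share 1 order. Among the clones B8 was highest for Lama1, Gata6, Sox17 and Pdgfra, A6 for Sox7 and Dab2, and C4 for Gata4 and Foxa2. The part of such cells in the levels of the Id genes and Bmp4 was not tested, and in bulk RNA a change in the share of cells and a change per cell cannot be told apart.

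The genes around the members were examined as well. The 20 tested genes nearest to Id1 had a median log2 ratio to the EB3 mean of -0.06 in B8, with each library's median over all genes set to 0, where Id1 itself was at -0.995. For Id3 the neighbours' median in B8 was -0.01, for Id4 it was -0.14 and for Bmp4 -0.03, where the genes themselves were at -1.04, 1.24 and -0.26. For Hes1 the neighbours were at 0.12 in B8 and Hes1 at 0.31, and for Tcf3 the neighbours were at 0.15 in EB3-0 and Tcf3 at 0.09. None of the neighbours of any member was called. Id2 and Id3 are on the study's list of genes nearest to SIM2-bound regions, as are 10.1% of tested genes.

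The level of the members gave the same order in both groups: Id1, Bmp4, Tcf3, Id3, Id2, Hes1, Tcf12, Tcf4 and Id4. In the clones the ranges of Id1 and Bmp4 overlapped, as did those of Id3 and Id2 and those of Id2 and Hes1. In EB3 the neighbours that overlapped were Tcf3 and Id3, Id2 and Hes1, and Tcf12 and Tcf4.

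The BMP pathway itself was then examined. Of 34 listed BMP genes 21 were tested, and 0 were called in either direction by limma. The log2 fold changes were above 0 for 16 and below it for 5, with a median of 0.13 (all tested genes: -0.01), and 3 had an unadjusted p under 0.05. Grem1, a secreted BMP antagonist, was at 1.14, 1.63 and 1.86 RPKM in A6, B8 and C4 and at 0.156, 0.799 and 0.561 RPKM in EB3. Its groups did not overlap, as for 4 of the 21 tested BMP genes and 26.1% of all tested genes. Grem1 had a log2 fold change of 1.06 and the smallest adjusted p of the list, 0.116. Bmp8a, a BMP ligand, had a log2 fold change of 0.70 (adjusted p = 0.261). Dusp9, an ERK phosphatase known as a BMP target in ES cells, was at 113, 105 and 83.9 RPKM in the clones and at 103, 52.4 and 52.5 RPKM in EB3. EB3-0 thus lay with the clones, and the log2 fold change of Dusp9 was 0.60 (adjusted p = 0.267).

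Among the tissue-specific bHLH partners of E proteins, 7 of 37 listed genes were tested and 0 were called, with 0 at an unadjusted p under 0.05 and a median log2 fold change of -0.12. The most abundant one named was Tcf15, a partner of E proteins that Id proteins are known to hold back in ES cells. It was at 60.7, 28.7 and 65.5 RPKM in A6, B8 and C4 and at 74.8, 60.8 and 59.8 RPKM in EB3. B8 was low, as for Id1 and Id3, and A6 and C4 lay near EB3-1 and EB3-2. The log2 fold change of Tcf15 was -0.41 (adjusted p = 0.490). Tcf15 lies on the same chromosome as Id1, at chr2:151969345-151974832, and the 20 tested genes nearest to it had a median log2 ratio of -0.16 in B8. Twist1 (log2 fold change 0.27, adjusted p = 0.449) and Msc (-0.33, adjusted p = 0.538), 2 bHLH factors of mesodermal tissues, were the other genes of the list with the smallest p.

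Of 31 listed Notch genes 26 were tested and 0 called, with 4 at an unadjusted p under 0.05, a median log2 fold change of 0.08, 16 above 0 and 10 below. Maml2, a coactivator of the Notch complex, was at 1.27, 0.914 and 1.32 RPKM in the clones and 1.68, 2.37 and 2.37 RPKM in EB3, with a log2 fold change of -0.66 (adjusted p = 0.140). The ligand Jag1 had a log2 fold change of -0.47 (adjusted p = 0.257) and Numbl, a relative of the Notch inhibitor Numb, one of 0.26 (adjusted p = 0.261). Of 12 Hes and Groucho genes 6 were tested and 0 called, with 0 at an unadjusted p under 0.05 and a median of 0.09. Hes6, which is known to counter Hes1, was at 43.8, 32.4 and 55.5 RPKM in the clones and 31.0 to 33.8 RPKM in EB3 (log2 fold change 0.39, adjusted p = 0.300). The corepressor Tle3 had a log2 fold change of 0.14 (adjusted p = 0.488).

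All 14 listed genes of the LIF-STAT3 pathway, the other signal of this culture, were tested, and 0 were called, with 3 at an unadjusted p under 0.05 and a median of 0.12. The kinase genes Pim3 (log2 fold change 0.30, adjusted p = 0.200) and Jak1 (0.33, adjusted p = 0.207) and the feedback inhibitor Socs1 (0.41, adjusted p = 0.273) had the smallest p of the list. The groups of these 3 did not overlap, and no other gene of the list had groups that were apart. Of all tested genes 26.1% had groups that did not overlap, and 17.8% had an unadjusted p under 0.05 in limma. The log2 fold changes of the list were above 0 for 10 genes and below it for 4.

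**Figure D5:**
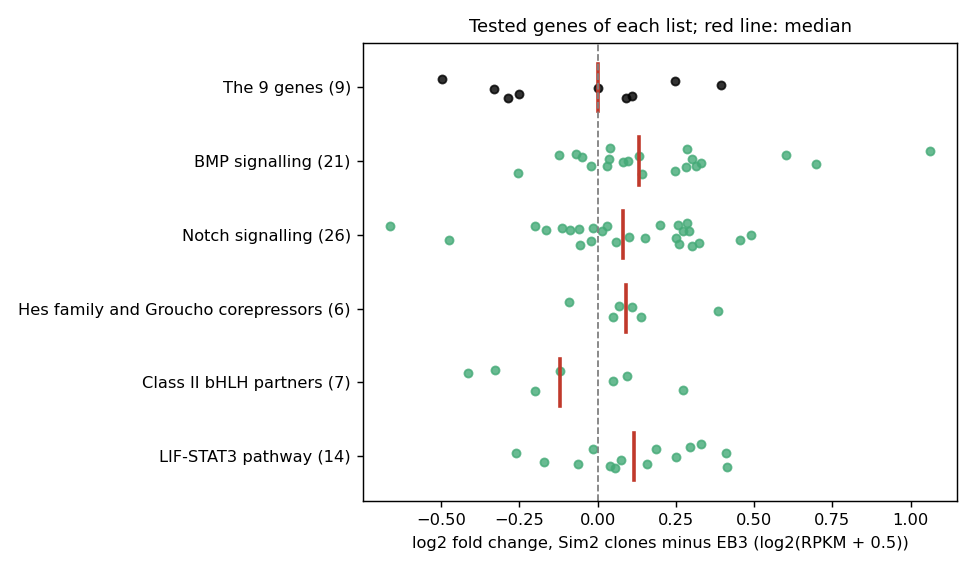
Log2 fold change (x axis, Sim2 clones minus EB3, on log2(RPKM + 0.5)) of the tested genes of each list (y axis, number of genes in brackets); the vertical spread of points is arbitrary and red lines are medians. The medians of the 5 lists lie between -0.12 and 0.13. Grem1 at 1.06, which passed the level filter only through the clones, is the farthest point.

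The tested genes whose log2 levels followed each member most closely over the 6 libraries are given as a description, since 6 points that share library composition give many close matches. Between 98 (Bmp4) and 498 (Id3) tested genes had a Pearson r over 0.9 with a member. The closest to Id1 were Poli and Tm7sf3 (r = 0.997 and 0.996), and to Id3 Muted and Plk2 (0.999 and 0.997). Poli, a DNA polymerase gene, was at 20.3, 12.4 and 17.7 RPKM in A6, B8 and C4 and 17.9 to 19.3 RPKM in EB3, the order of Id1. Id2 was followed by Atp2c1 and Plekha1 (0.988 and 0.986), and Id4 by Rprd1b and Sema4c (0.993 and 0.991). Sema4c, a semaphorin, was at 2.03 RPKM in B8 and 0.905 to 1.06 RPKM elsewhere. For the E proteins the closest were Cox4nb and Sympk to Tcf3 (0.995 and 0.988), Zfp930 and Zfp868 to Tcf4 (0.997 and 0.996), and Zfand5 and A630072M18Rik to Tcf12 (0.991 and 0.986). Hes1 was followed by Sphk2 and 1700113I22Rik (both 0.977) and Bmp4 by Lrch4 and AU022252 (0.989 and 0.987). Among the members themselves r was 0.91 for Id1 with Id3 and -0.98 for Id1 with Id4, the highest and the lowest of all pairs. The value for Id1 with Id4 rests largely on B8, where Id1 was at 54.6 RPKM and Id4 at 3.74 RPKM. In the other libraries Id1 was at 104 to 129 RPKM and Id4 at 1.13 to 1.53 RPKM.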

How the data were processed

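Messenger RNA was sequenced as paired reads of 100 bases. The authors mapped the reads to mm9 with BWA, calculated exon coverage of each gene with a custom pipeline and deposited it as RPKM, with the cDNA length used as denominator. Strand, handling of reads with several positions and software versions are not given in the sources used here. Depth was recovered from the steps of the RPKM values (100% whole at a tolerance of 0.01), and genes with 2 reads outnumbered those with 1, so mates were counted apart.

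Groups came from the labels. The 11595 of 22602 genes (51.3%) whose RPKM averaged 1 or more were tested on log2(RPKM + 0.5) with limma 3.58.1 in R 4.3.3 (eBayes with a trend, no covariate). P-values were adjusted by Benjamini-Hochberg over all tested genes, with a threshold of 0.05. Fold changes on this scale understate those of low genes. Count models were not fitted to RPKM. The limma step was tested on simulated data with the same spread in every library. That spread was narrower than the spread of the Id genes and Bmp4 between clones. The simulation therefore does not show how large a change in those genes could be called. Family ratios were compared by a 2-sided exact permutation test (scipy 1.17.1). The limma p-values set the difference of group means against the spread within groups. In the clones that spread holds differences between clones as well as between cultures.

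The members, gene lists and motifs were chosen with earlier results of these data known. Named were the 9 members, up to 5 called genes of each list or, where fewer than 3 were called, those with the smallest p up to 3, and the 2 genes most alike each member. Transcripts were compared with mm9 by blastn 2.17.0 (at least 100 bases at 90% identity). The alternatives tried are given with their effect in the closing section.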

Additional observations from a re-analysis of the deposited data

How the results depend on the processing

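With 3 libraries a group, and with B8 and EB3-0 standing apart, the group means of the Id genes and Bmp4 carry wide errors. Over 17 alternatives 151 values of members were computed, of which 139 kept their direction and side of the threshold, 9 changed sign and 3 became calls. All 3 calls came with array weights, which gave EB3-0 a weight of 0.133, B8 0.275, A6 0.769, EB3-1 2.69, C4 2.91 and EB3-2 4.54: Id2 at -0.52 (adjusted p = 0.00758), Tcf4 at -0.49 (0.00344) and Bmp4 at 0.44 (0.00338). With these weights 3712 of all tested genes were called, and 5 BMP, 7 Notch, 1 Hes or Groucho, 1 bHLH partner and 6 LIF-STAT3 genes. Over all alternatives the adjusted p ran from 0.00758 to 0.988 for Id2, from 0.00344 to 0.712 for Tcf4 and from 0.00338 to 0.844 for Bmp4. Leaving out 1 library at a time called 0 members each time. The log2 fold changes then ran from -0.54 to 0.0701 for Id1 and from -0.0215 to 0.63 for Id4, where 0.0701 and -0.0215 were the values without B8, from -0.13 to 0.11 for Tcf12, from -0.49 to -0.01 for Id2, from -0.75 to -0.22 for Id3, from 0.06 to 0.14 for Tcf3, from -0.52 to -0.20 for Tcf4, from 0.02 to 0.18 for Hes1 and from 0.10 to 0.51 for Bmp4. Without EB3-0, 1 BMP and 1 LIF-STAT3 gene were called, and 0 of either list without any other library. Tcf3 was at -0.0568 with length and GC trends removed. Tcf12, at 0.00, was at -0.0316 with quantile normalization, -0.0152 with median centring, -0.0510 with the length trend removed and -0.21 with array weights. The count of all tested genes called was 81 and became 28 with no filter, 250 with the length trend removed, 190 with length and GC trends removed, 30 without an eBayes trend and 6 with EB3-1 and EB3-2 averaged. It ran from 6 (without EB3-1 or EB3-2) to 694 (without EB3-0) over the leave-outs, with 17 without B8, 20 without A6 and 7 without C4. Id4 and Tcf4 could not be fitted at a mean RPKM of at least 5, which they do not reach. The causes were not tested. No paired analysis was possible because the labels of the 2 groups share no replicate number.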

Other observations

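Numb, an inhibitor of Notch on the Notch list, was named after its values were seen. It was at 14.8 RPKM in B8 and 5.68 to 7.88 RPKM in the other 5 libraries. It lies at chr12:85136389-85183293 (mm9). The 20 tested genes nearest to it had a median log2 ratio to EB3 of 0.47 in B8, against 0.01 in A6 and 0.07 in C4, with each library's median over all genes set to 0. Id2, on the same chromosome, had neighbours with a median of -0.08 in B8.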
